A study of Mus musculus with 60 samples.

Results

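Fkbp5, Tsc22d3, Sgk1, Zbtb16, Mt1 and Mt2, a set of glucocorticoid-responsive and metallothionein genes, were followed through lung, liver and forestomach of mice given benzo(ghi)perylene (BghiP), a polycyclic aromatic hydrocarbon. The members were taken as the probes whose RefSeq accession maps to these symbols, which gave 6 probes for 6 genes, among 55681 probes and 20018 genes with a probe in all. Each gene had exactly 1 probe: Fkbp5 NM_010220, Tsc22d3 NM_001077364, Sgk1 NM_001161845, Zbtb16 NM_001033324, Mt1 NM_013602 and Mt2 NM_008630. All 6 were well above background in the tissue dye (Cy5) on all 60 arrays. The same flag for the reference dye (Cy3) was not used. Zbtb16 had the faintest reference signal, with a log2 Cy3 of 6.55 to 8.07, where the other members had 10.14 or more. Its log2 Cy5 fell to 6.52 in forestomach. The main ratios had no background subtraction, and the part of faint signal in the Zbtb16 results was not tested.

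The animals were 20 male Muta Mouse, a transgenic strain that carries a bacterial reporter gene for mutation tests, about 10 weeks old and housed singly. They received BghiP in olive oil by gavage on each of 28 days, and tissues were taken 72 hours after the last dose. D0 had olive oil alone (mice 1 to 5), D1 had 6.25 mg/kg-bw/day (mice 6 to 10), D2 had 12.5 mg/kg-bw/day (mice 11 to 15) and D3 had 25 mg/kg-bw/day (mice 16 to 20), and a number is the same animal in every tissue. RNA came from random sections of each tissue, so that fewer cells of a type and less RNA per cell cannot be told apart. Each value is a log2 ratio of tissue RNA (Cy5) to a reference RNA pooled from 11 mouse cell lines (Cy3), so that a gene can be compared between arrays but not with another gene.

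Glucocorticoids, in mice mainly corticosterone, bind the glucocorticoid receptor, which moves to the nucleus and binds DNA at glucocorticoid response elements. Their level in blood follows the time of day and rises with handling and other stress. Metallothioneins are small cysteine-rich proteins that bind zinc and copper, and their genes respond to metals through metal response elements bound by the factor Mtf1, and also to glucocorticoids.

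Among the members, Fkbp5 encodes a co-chaperone of Hsp90 that lowers the affinity of the receptor for hormone and is itself induced by the receptor. Tsc22d3 encodes the glucocorticoid-induced leucine zipper protein, which restrains inflammatory signalling. Sgk1 encodes a serum- and glucocorticoid-regulated kinase that acts on ion channels and transporters. Zbtb16 encodes a zinc finger transcription factor of the BTB family, and Mt1 and Mt2 encode the metallothioneins made in most tissues.

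The sequences upstream of 3 members are shown because they hold matches to elements through which these signals are known to act. They are the 250 bases before the annotated transcript start in the RefSeq table of build GRCm38.p6, all on the plus strand, for Mt2 at chr8:94172368-94172617, for Mt1 at chr8:94178839-94179088 and for Sgk1 at chr10:21993640-21993889. Capitals mark the metal response element core (TGCGCNC or TGCACNC, searched on both strands) in Mt2 and Mt1, and the full glucocorticoid response element (AGAACA, any 3 bases, then TGTTCT, a palindrome) in Sgk1.
Mt2: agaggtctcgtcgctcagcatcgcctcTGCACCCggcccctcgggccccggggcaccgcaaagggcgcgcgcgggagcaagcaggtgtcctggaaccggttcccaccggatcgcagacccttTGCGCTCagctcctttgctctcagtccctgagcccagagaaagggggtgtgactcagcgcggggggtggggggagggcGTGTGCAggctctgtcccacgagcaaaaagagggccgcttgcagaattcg
Mt1: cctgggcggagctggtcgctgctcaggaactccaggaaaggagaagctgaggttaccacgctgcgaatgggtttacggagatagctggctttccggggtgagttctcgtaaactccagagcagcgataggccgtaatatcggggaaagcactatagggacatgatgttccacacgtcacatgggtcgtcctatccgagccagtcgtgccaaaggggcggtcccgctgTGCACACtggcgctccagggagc
Sgk1: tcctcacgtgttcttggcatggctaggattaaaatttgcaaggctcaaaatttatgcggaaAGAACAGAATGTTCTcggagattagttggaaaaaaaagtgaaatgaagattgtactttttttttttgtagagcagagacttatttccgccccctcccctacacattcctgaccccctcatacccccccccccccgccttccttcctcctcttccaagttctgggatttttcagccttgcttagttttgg

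The Mt2 window held 3 metal response element cores, which began 223, 128 and 50 bases before the start, the last of them on the minus strand (printed as GTGTGCA). The Mt1 window held 1 core, 23 bases before the start. Bases outside these windows, also those after the start, were not searched for either gene. Of 32851 windows of this length in the table, 21.4% held at least 1 such core and 1.26% held 3 or more. Sgk1 had 6 annotated starts, and the window of 1 of them held a full glucocorticoid response element 189 bases before the start. Such an element stood in 3 of the 32851 windows (0.00913%). Which start the transcript measured by the Sgk1 probe uses is not given in the sources used here. The windows of the 1 Fkbp5 start and the 3 Tsc22d3 starts held no full element, which says only that these letters are not within 250 bases upstream. The table has no entry for Zbtb16.

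Some features of the whole series bear on the values below. The share of probes well above background ran from 34.91% to 58.63% over lung arrays, from 36.27% to 48.31% over liver arrays and from 21.31% to 53.34% over forestomach arrays. Arrays lay on 8 slides, 5 for lung and forestomach and 3 for liver, and a mouse had its lung and forestomach arrays on the same slide. No slide held liver beside another tissue, so that liver and its slides cannot be told apart in differences of level. Each dose kept its own column on every slide, so that dose and position cannot be told apart. Marker genes were high in the labelled tissues, where the mean log2 ratio of 8 lung markers was 5.42 to 6.15 in lung, that of 8 liver markers 6.79 to 7.99 in liver, and that of 8 squamous epithelium markers 3.46 to 4.87 in forestomach. The lung array of D0 mouse 1 stood apart, with squamous epithelium markers at 3.3 (-0.77 to -0.23 on the other 19) and skeletal muscle markers at 5.31 (-1.06 to 0.5). The lung array of D3 mouse 20 had the highest liver markers, 4.2 (second highest 1.05), glandular stomach markers, 1.57 (0.74), and acute phase genes, 1.56 (0.71). Values without one of these arrays stand beside several of the lung results. The forestomach samples differed in their content of other tissues, with glandular stomach markers between 0.26 and 7.26, liver markers between 0 and 4.57, fat cell markers up to 6.24 (mouse 5) and lung markers up to 4.35 (mouse 2).

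The first comparison asked in which tissue each member was high or low against the common reference. Both metallothionein genes were ordered forestomach, lung, liver from high to low, and no value of one tissue overlapped another. Zbtb16 and Tsc22d3 were ordered lung, liver, forestomach. Fkbp5 was lowest in lung, and Sgk1 was lowest in liver.

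Mt2 had a mean log2 ratio of 0.70 ± 0.29 (SD, n = 20) in forestomach, -3.15 ± 0.45 in lung and -4.50 ± 0.28 in liver. Its lowest, median and highest values were 0.18, 0.68 and 1.28 in forestomach, -3.55, -3.21 and -1.31 in lung, and -5.07, -4.43 and -3.90 in liver. The ranges were apart in all 3 pairs of tissues, also with the -1.31 of mouse 1 in lung. Mt2 in liver was 36.8-fold below forestomach (change -5.20 ± 0.11 SE, limma adjusted p = 1.08e-42), lung was 14.5-fold below forestomach (-3.85 ± 0.11, adjusted p = 9.2e-36), and lung was 2.54-fold above liver (1.35 ± 0.11, adjusted p = 1.15e-16).

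Mt1 had a mean log2 ratio of -0.14 ± 0.62 (SD, n = 20) in forestomach, -2.07 ± 0.25 in lung and -4.50 ± 0.40 in liver. The lowest, median and highest values of Mt1 were -1.08, -0.32 and 0.79 in forestomach, -2.45, -2.05 and -1.35 in lung, and -5.33, -4.50 and -3.54 in liver. Every mouse followed the same order. Mt1 in liver was 20.4-fold below forestomach (-4.35 ± 0.13 SE, adjusted p = 7.78e-36), lung was 3.81-fold below forestomach (-1.93 ± 0.13, adjusted p = 8.17e-20), and lung was 5.36-fold above liver (2.42 ± 0.13, adjusted p = 2.28e-24).

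Sgk1 had a mean log2 ratio of 0.39 ± 0.46 (SD, n = 20) in forestomach, 0.01 ± 0.27 in lung and -2.24 ± 0.26 in liver. Its lowest, median and highest values were -0.20, 0.25 and 1.35 in forestomach, -0.40, 0.03 and 0.50 in lung, and -2.60, -2.26 and -1.46 in liver. Liver lay apart from both other tissues, whereas lung and forestomach overlapped and lung was the higher in 2 of 20 mice. Sgk1 in liver was 6.18-fold below forestomach (-2.63 ± 0.10 SE, adjusted p = 7.7e-30) and lung was 4.75-fold above liver (2.25 ± 0.10, adjusted p = 6.77e-27). The 1.30-fold difference of lung from forestomach (-0.38 ± 0.10, adjusted p = 0.000838) was under the 1.5-fold asked of a call.

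Fkbp5 had a mean log2 ratio of -0.20 ± 0.33 (SD, n = 20) in forestomach, -0.50 ± 0.24 in liver and -1.56 ± 0.40 in lung. Its lowest, median and highest values were -0.91, -0.18 and 0.48 in forestomach, -0.98, -0.51 and -0.09 in liver, and -2.09, -1.75 and -0.70 in lung. Lung was below liver and below forestomach in 20 of 20 mice, although the ranges overlapped. Fkbp5 in lung was 2.56-fold below forestomach (-1.35 ± 0.10 SE, adjusted p = 4.79e-17) and 2.09-fold below liver (-1.06 ± 0.10, adjusted p = 1.63e-13), and the 1.23-fold difference of liver from forestomach (-0.29 ± 0.10, adjusted p = 0.00975) was not called.

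Zbtb16 had a mean log2 ratio of 3.49 ± 0.64 (SD, n = 20) in lung, 2.64 ± 0.68 in liver and 1.30 ± 0.63 in forestomach. Its lowest, median and highest values were 2.75, 3.24 and 5.08 in lung, 1.32, 2.61 and 3.97 in liver, and 0.58, 1.18 and 2.90 in forestomach. The 3 ranges overlapped, but lung was above forestomach in 20 of 20 mice and above liver in 19 of 20. Zbtb16 in lung was 4.56-fold above forestomach (2.19 ± 0.19 SE, adjusted p = 3.86e-15), liver was 2.53-fold above forestomach (1.34 ± 0.19, adjusted p = 1.03e-08), and lung was 1.80-fold above liver (0.85 ± 0.19, adjusted p = 6.23e-05). The difference of lung from liver was lost with the D0 arrays alone (0.62, adjusted p = 0.123) and with the scanner's processed signals (0.40, adjusted p = 0.057).

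Tsc22d3 had a mean log2 ratio of 1.97 ± 0.38 (SD, n = 20) in lung, 1.38 ± 0.36 in liver and 0.61 ± 0.38 in forestomach. Its lowest, median and highest values were 1.41, 1.82 and 2.85 in lung, 0.88, 1.38 and 2.03 in liver, and 0.03, 0.51 and 1.37 in forestomach. Lung and forestomach did not overlap. Tsc22d3 in lung was 2.57-fold above forestomach (1.36 ± 0.11 SE, adjusted p = 2.99e-16), liver was 1.71-fold above forestomach (0.78 ± 0.11, adjusted p = 1.06e-08), and lung was above liver by 0.59 ± 0.11 (adjusted p = 3.53e-06), a value at the edge of the 1.5-fold limit that fell under it when any of 9 of the 20 mice was left out (mice 1 and 20 among them) and with the scanner's processed signals (0.41, adjusted p = 0.000823).

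In all, 16 of the 18 differences of level were called, and the same 16 with mouse as a replicate block. Differences between tissues were common over the array: of 33255 probes, 45.6% were called for lung against liver, 34.6% for lung against forestomach and 39% for forestomach against liver (45.7%, 34.6% and 39% with the block). The plot of values by dose and tissue shows these levels beside the spread between mice.

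**Figure D1:**
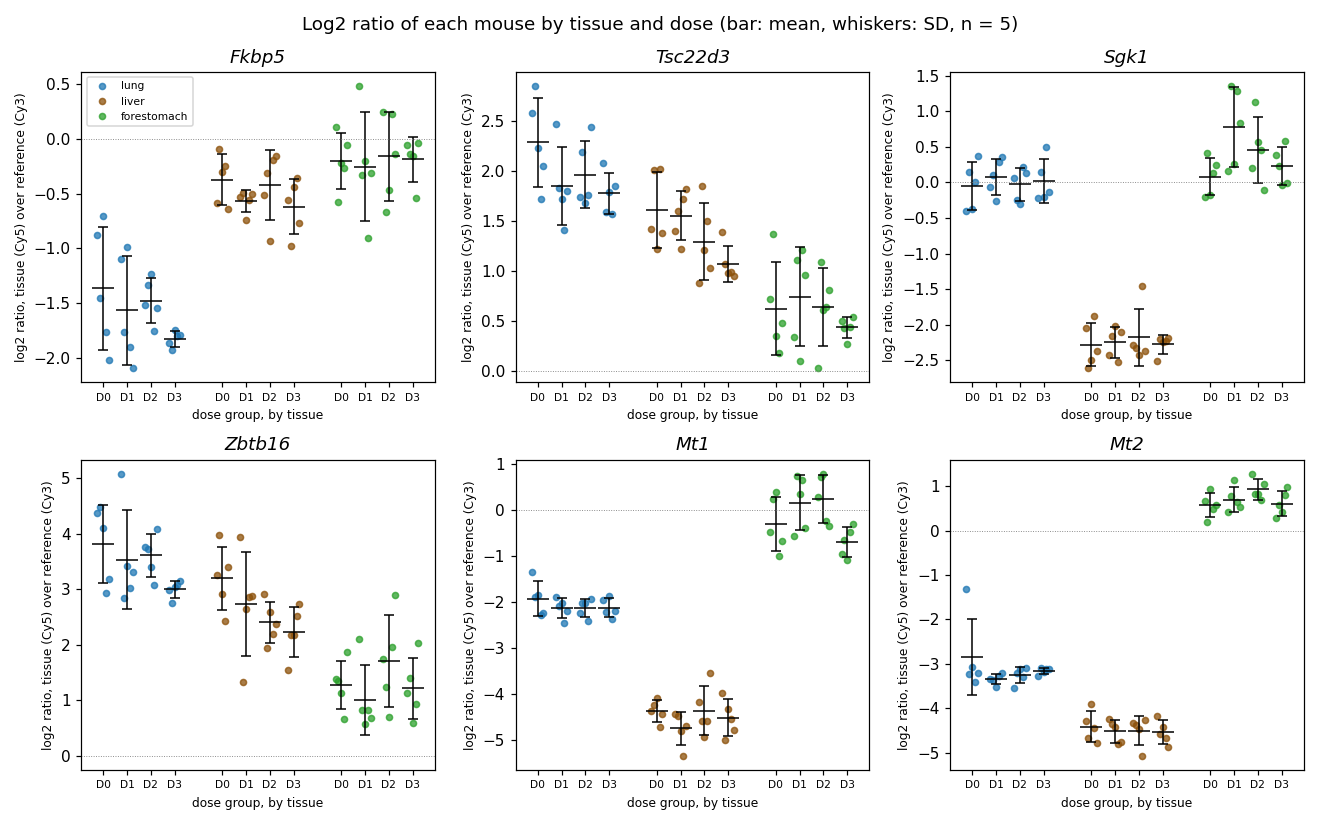
Log2 ratio of tissue RNA to reference RNA (vertical axis) for the 6 members in each dose group of lung, liver and forestomach (horizontal axis), with 1 point per mouse and the mean ± SD of 5 mice. Mt1 and Mt2 in liver lie between -5.33 and -3.54 and between -5.07 and -3.90, below every lung and forestomach value of the same gene, and the groups D1 to D3 overlap D0 in every panel.

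Zbtb16 was also the member that varied most between mice. In liver its lowest and highest mouse differed 6.25-fold, in lung 5.03-fold and in forestomach 4.99-fold. The SD of Zbtb16 within dose groups was 0.61 in lung, 0.62 in liver and 0.63 in forestomach, larger than that of 95.9%, 99% and 88% of the probes tested in the tissue, whose medians were 0.20, 0.19 and 0.29. The SD of Mt1 in liver, 0.40, exceeded that of 95.2% of probes, and the SD of Mt2 in lung, 0.45, exceeded that of 91.1% and rested on mouse 1. The smallest spread against other probes was that of Mt2 in forestomach, 0.27, above 43.2% of probes.

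The comparison of each dose with D0 asked whether BghiP altered the members. No member was called at D1, D2 or D3 in any tissue (limma, adjusted p of 0.05 or less and 1.5-fold or more), and none by a slope on dose. The background was the same, since 0% of the probes tested (31022 for lung, 25893 for liver, 25070 for forestomach) were called at any dose, and a slope was called for 0.239% of probes in liver and 0% in the other tissues. The authors, with another test at the same cut-offs, report genes changed by the highest dose of BghiP in each tissue. At D3, 4 of the 18 changes of members had an unadjusted p under 0.05, all of them below D0, where 4.81% (lung), 12.1% (liver) and 1.5% (forestomach) of all probes had one. These were Zbtb16 and Tsc22d3, each in lung and liver, and in each case all D3 mice were below the mean of D0 (0 of 5 above it).

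In liver, Tsc22d3 had log2 ratios of 1.42, 2.01, 1.22, 2.03 and 1.38 in D0 mice 1 to 5 and of 1.39, 1.06, 0.98, 0.99 and 0.94 in D3 mice 16 to 20. Mouse 16 at D3 lay above mice 3 and 5 of D0, and the other D3 mice lay below every D0 mouse. Group means were 1.61 ± 0.38 (SD, n = 5) at D0, 1.55 ± 0.24 at D1, 1.29 ± 0.39 at D2 and 1.07 ± 0.18 at D3. The change of liver Tsc22d3 at D3 was -0.54 ± 0.18 (SE), 1.45-fold, with a limma adjusted p of 0.241, and its slope on dose had an adjusted p of 0.111.

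In liver, Zbtb16 had log2 ratios of 3.25, 3.97, 2.91, 2.43 and 3.40 in D0 mice 1 to 5 and of 1.54, 2.18, 2.17, 2.51 and 2.74 in D3 mice 16 to 20. Mouse 4 at D0 lay within the D3 range, and the other D0 mice lay above it. Group means were 3.19 ± 0.57 (SD, n = 5) at D0, 2.73 ± 0.93 at D1, 2.40 ± 0.37 at D2 and 2.23 ± 0.45 at D3. The change of liver Zbtb16 at D3 was -0.97 ± 0.35 (SE), 1.95-fold, with a limma adjusted p of 0.268, and the slope had an adjusted p of 0.179.

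In lung, Zbtb16 had log2 ratios of 4.37, 4.48, 4.11, 2.94 and 3.18 in D0 mice 1 to 5 and of 2.99, 2.75, 3.04, 3.07 and 3.15 in D3 mice 16 to 20. The D3 mice lay close together, and D0 mouse 4 fell among them. The change of lung Zbtb16 at D3 was -0.81 ± 0.35 (SE), 1.76-fold, with a limma adjusted p of 0.998. Lung Tsc22d3 stood at 2.58, 2.85, 2.23, 1.72 and 2.05 in D0 mice 1 to 5 and at 2.08, 1.59, 1.79, 1.57 and 1.85 in D3 mice 16 to 20, a change of -0.51 ± 0.21 with an adjusted p of 0.974. Mice 4 and 5 of D0 lay within the D3 range of Tsc22d3. Without mouse 1 the lung changes were -0.68 ± 0.37 for Zbtb16 and -0.44 ± 0.22 for Tsc22d3, and without mouse 20 they were -0.85 ± 0.38 and -0.53 ± 0.23.

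Fkbp5 in lung had log2 ratios of -0.88, -1.45, -0.70, -1.76 and -2.02 in D0 mice 1 to 5 and of -1.87, -1.92, -1.74, -1.80 and -1.79 in D3 mice 16 to 20. D0 spanned the D3 values, with mouse 5 below and mice 1, 2 and 3 above all of them. Its change at D3 was -0.46 ± 0.23 (SE), 1.38-fold, with a limma adjusted p of 0.998, or -0.34 without mouse 1 and -0.47 without mouse 20. Leaving out each mouse in turn gave lung changes from -0.63 to -0.3. Fkbp5 changed by -0.24 ± 0.14 in liver and by 0.01 ± 0.22 in forestomach, neither of which passed.

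Sgk1 in forestomach had its largest difference at the lowest dose. It stood at -0.20, 0.41, -0.18, 0.14 and 0.24 in D0 mice 1 to 5 and at 0.16, 1.35, 0.26, 1.29 and 0.83 in D1 mice 6 to 10. Mice 7, 9 and 10 lay above every D0 mouse, and mice 6 and 8 within the D0 range. Glandular stomach markers on the same arrays were at 0.91, 6.18, 5.39, 1.08 and 0.71 in D0 mice 1 to 5 and at 1.38, 6.70, 5.65, 7.26 and 6.76 in D1 mice 6 to 10, so that mice 7, 9 and 10 also lay above every D0 mouse in these markers, whose part in the Sgk1 difference was not tested. The change of Sgk1 was 0.70 ± 0.25 (SE), 1.62-fold, with a limma adjusted p of 0.506, and group means at D2 and D3 were 0.45 and 0.23 beside 0.08 at D0. At D3 Sgk1 changed by 0.15 ± 0.25 in forestomach, 0.07 ± 0.17 in lung and 0.01 ± 0.17 in liver.

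The metallothionein genes had no unadjusted p under 0.05 at D3. Mt2 in lung had log2 ratios of -1.31, -3.24, -3.08, -3.41 and -3.20 in D0 mice 1 to 5 and of -3.27, -3.10, -3.19, -3.12 and -3.13 in D3 mice 16 to 20. Mouse 1 lay far above every other lung array, and the D3 change was -0.32 ± 0.26 (SE) with it and 0.07 without it. Lung Mt1 changed by -0.19 ± 0.16 with mouse 1 and by -0.05 without it. At D2 lung Mt2 changed by -0.41 with mouse 1 and by -0.03 ± 0.10 without it. In forestomach Mt2 was 0.36 ± 0.17 above D0 at D2 (adjusted p = 0.998, 5 of 5 mice above the D0 mean) and 0.04 ± 0.17 at D3, while Mt1 was -0.38 ± 0.31 at D3. In liver the D3 changes were -0.15 ± 0.23 for Mt1 and -0.12 ± 0.17 for Mt2.

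With slide as a block these changes moved little (-0.55 for liver Tsc22d3), and again no member was called. At D3, 0.0677% of probes were then called in lung, 0.0927% in liver and 0% in forestomach, and by slope 0.306%, 2.61% and 0%. The adjusted p-values at D3 became 0.179 for lung Fkbp5, 0.154 for lung and 0.148 for liver Tsc22d3, and 0.21 for lung and 0.164 for liver Zbtb16. The smallest of any member was that of the liver Tsc22d3 slope, 0.0738.

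**Figure D2:**
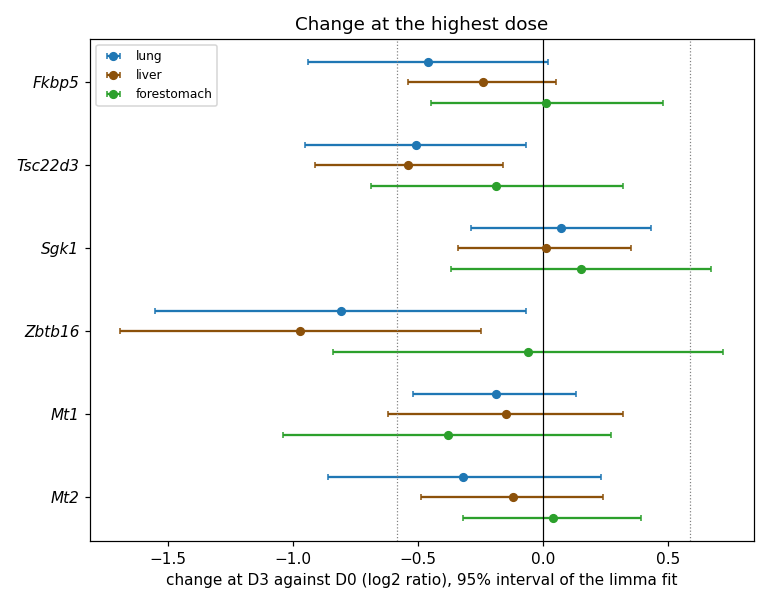
Change at D3 against D0 on the log2 scale (horizontal axis) for each member in each tissue, as points with 95% confidence intervals from limma, with dotted lines at 1.5-fold. The intervals of Zbtb16 and Tsc22d3 in lung and liver lie below 0, from -1.69 to -0.25 for liver Zbtb16, but no adjusted p passed.

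The D3 change was also compared from tissue to tissue, in a model of all groups. No member passed in any of the 18 contrasts, nor did any probe (0% of 33255). The largest was Zbtb16 in liver against forestomach, -0.91 ± 0.54 (SE, limma adjusted p = 1), with a 95% interval from -1.98 to 0.17. With slide as a block 0.00301%, 0% and 0.0271% of probes were called for lung against liver, lung against forestomach and liver against forestomach, and again no member.

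Other genes of the same pathways were counted at D3, from lists of genes that hold no member. Of 26 other glucocorticoid targets, 23 were tested in lung, 24 in liver and 23 in forestomach, and 0 were called, with median changes of -0.09, 0.06 and -0.14 beside 0.01, 0 and 0.01 over all probes. The lung median was 0.04 without mouse 1 and -0.14 without mouse 20. With unadjusted p under 0.05, 2 were above and 3 below D0 in lung, 2 above and 0 below in liver, and 0 above and 1 below in forestomach. Of all probes, 2.88% were above and 1.93% below in lung by this measure, 5.43% and 6.72% in liver, and 0.77% and 0.734% in forestomach. The most changed in lung was Rgs2, a regulator of G protein signalling (0.80 ± 0.21 SE, adjusted p = 0.714, or 0.0287 with slide as a block, when it was called, and 0.0593 with the block but without mouse 1). Arrdc2 in liver had 0.40 ± 0.13 (adjusted p = 0.23). Pdk4, a kinase that holds back pyruvate oxidation, had -0.47 ± 0.43 in lung (0.09 ± 0.26 without mouse 1), -0.35 ± 0.41 in liver and 0.50 ± 0.60 in forestomach.

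Of 14 genes of the receptor and its chaperones, 13, 13 and 12 were tested in lung, liver and forestomach and 0 were called. The chaperone Hsp90aa1 had -0.63 ± 0.29 in lung (adjusted p = 0.998) and -0.77 ± 0.35 in liver (adjusted p = 0.387), and its co-chaperones Stip1 in lung and Fkbp4 in liver had -0.56 ± 0.24 and -0.27 ± 0.11. Of 16 genes of zinc and metal handling, 13, 14 and 15 were tested and 0 were called, with medians of 0.03 (-0.02 without mouse 1 and -0.04 without mouse 20), 0.03 and 0.04. The zinc exporter Slc30a1, like the metallothioneins a target of Mtf1, had 0.30 ± 0.24 in lung and 0.42 ± 0.18 in liver (adjusted p = 0.354). Others of the list were below D0, among them the metallothionein gene Mt3, with -0.24 ± 0.16 in lung and -0.29 ± 0.15 in liver, and Cp, which encodes the copper protein ceruloplasmin, with -0.25 ± 0.08 in liver (adjusted p = 0.241). Of 10 acute phase genes 5, 10 and 8 were tested and 0 were called, with 2 of 5 below D0 in lung (median 0.20, or 3 of 5 and -0.04 without mouse 20), 9 of 10 in liver (-0.25) and 8 of 8 in forestomach (-0.36), where 47.4%, 50.1% and 47.8% of all probes were below D0. Most acute phase proteins are made by liver, and of the liver markers tested 3 of 3 were above D0 in lung (median 0.77, or 2 of 3 and 0.03 without mouse 20), 6 of 8 below it in liver (-0.15) and 7 of 7 below it in forestomach (-0.57). The part of liver content in these counts was not tested.

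Clock genes were counted because glucocorticoid level follows the time of day, and the hour at which each animal was killed is not given in the sources used here. Of 16 clock genes 13, 13 and 12 were tested, and 0 were called without a block. Above D0 were 9 in lung (median change 0.16), 8 in liver (0.03) and 10 in forestomach (0.15), where 52.6%, 49.9% and 52.2% of all probes were above it. The lung median was 0.34 without mouse 1. With unadjusted p under 0.05, 4 were above and 1 below in lung, 3 above and 0 below in liver, and 0 either way in forestomach. Dbp, a clock-driven transcription factor, had D3 changes of 1.39 ± 0.49 in lung (adjusted p = 0.897), 1.15 ± 0.61 in liver and 0.89 ± 0.51 in forestomach. The clock repressor Nr1d1 had 1.16 ± 0.30 in lung (adjusted p = 0.751, or 0.048 with slide as a block, when it was called) and 0.99 ± 0.35 in liver (adjusted p = 0.26). That call was lost without mouse 1 (adjusted p = 0.0596) and without mouse 20 (0.0547). Nfil3, a repressor of clock-driven genes, was below D0, with -0.65 ± 0.19 in lung (adjusted p = 0.786, or 0.0566 with slide as a block) and -0.42 ± 0.22 in forestomach. Neither these clock changes nor the lower Zbtb16 and Tsc22d3 of D3 in lung and liver were called without a block. In forestomach Zbtb16 changed by -0.06 and Tsc22d3 by -0.19 at D3. The part of the clock in the values of these members was not tested.

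The spread between mice at D3 was small for some members and not for others, which is given as a description with no test. The ratio of the SD at D3 to that at D0 ran from 0.0767 for Mt2 in lung, where the SD at D0 rested on mouse 1 (0.87 with it, 0.14 without it, beside 0.07 at D3), to 1.69 for Mt1 in liver. Fkbp5 in lung had an SD of 0.56, 0.49, 0.20 and 0.07 at D0, D1, D2 and D3. Its ratio of D3 to D0, 0.128, was as small in 0.329% of the probes tested in lung. Zbtb16 in lung had 0.71, 0.89, 0.39 and 0.15, a ratio as small in 1.54% of probes, and Tsc22d3 in forestomach went from 0.47 at D0 to 0.10 at D3, as small in 1.64%. The SD of Tsc22d3 at D0 in forestomach was 0.23 without mouse 2, whose array had the highest lung markers there (4.35). Zbtb16 in forestomach had 0.44 at D0 and 0.55 at D3, and Fkbp5 in liver 0.23 and 0.25. D3 had the smallest SD of the 4 groups in 10 of the 18 sets of member and tissue, where this held for 38% (lung), 31.5% (liver) and 42.3% (forestomach) of all probes.

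The next comparison asked whether the level of a member followed the animal, by correlating the tissues of the same mouse. Zbtb16 was the member with the closest relation. Mouse 6 had the highest Zbtb16 of all lung arrays (5.08), the second highest in liver (3.94) and the highest of D1 in forestomach (2.10), and mouse 2 was at 4.48 in lung and 3.97 in liver. Between lung and liver Zbtb16 had a Pearson r of 0.69 and a Spearman rho of 0.69 over 20 mice (permutation p = 0.00061 and 0.00103, unadjusted). Adjusted over the 24431 probes tested in both tissues the p was 0.0551, so that Zbtb16 did not pass, and 1.08% of those probes had an r as high. Without mice 6 and 2, the 2 farthest from the median in lung, r was 0.45, so that much of the relation rested on them.

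Lung and liver arrays lay on different slides. With dose and slide removed, the r of Zbtb16 between lung and liver was 0.57 (adjusted p = 0.683). Between lung and forestomach, which shared slides, Zbtb16 had an r of 0.42 and a rho of 0.37 (permutation p = 0.0613 and 0.115), and 0.57 with dose and slide removed, and between liver and forestomach 0.26 and 0.27 (permutation p = 0.266 and 0.248). The slides held 4 lung arrays each, too few for an r within a slide.

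Tsc22d3 had an r of 0.59 and a rho of 0.52 between liver and forestomach (permutation p = 0.00671 and 0.0183, adjusted p = 0.276 over all probes, 1.41% of probes as high). Without mice 4 and 2 its r was 0.75, and with dose and slide removed 0.35. Lung markers in forestomach had an r of 0.66 with Tsc22d3 and heart muscle markers one of 0.62, and their part in the relation was not tested. Mt1 had an r of 0.47 and a rho of 0.56 between lung and liver (permutation p = 0.0387 and 0.0122, adjusted p = 0.382), and an r of 0.26 with dose and slide removed. The correlations of the other members and pairs had an r between -0.26 and 0.37.

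None of the 18 correlations passed when adjusted over all probes, of which 1% passed with a positive r for lung with liver, 21.5% for lung with forestomach and 0.319% for liver with forestomach. The 21.5% fell to 0.262% with dose and slide removed. The median r over all probes was 0.01, 0.29 and -0.01 for these pairs.

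**Figure D3:**
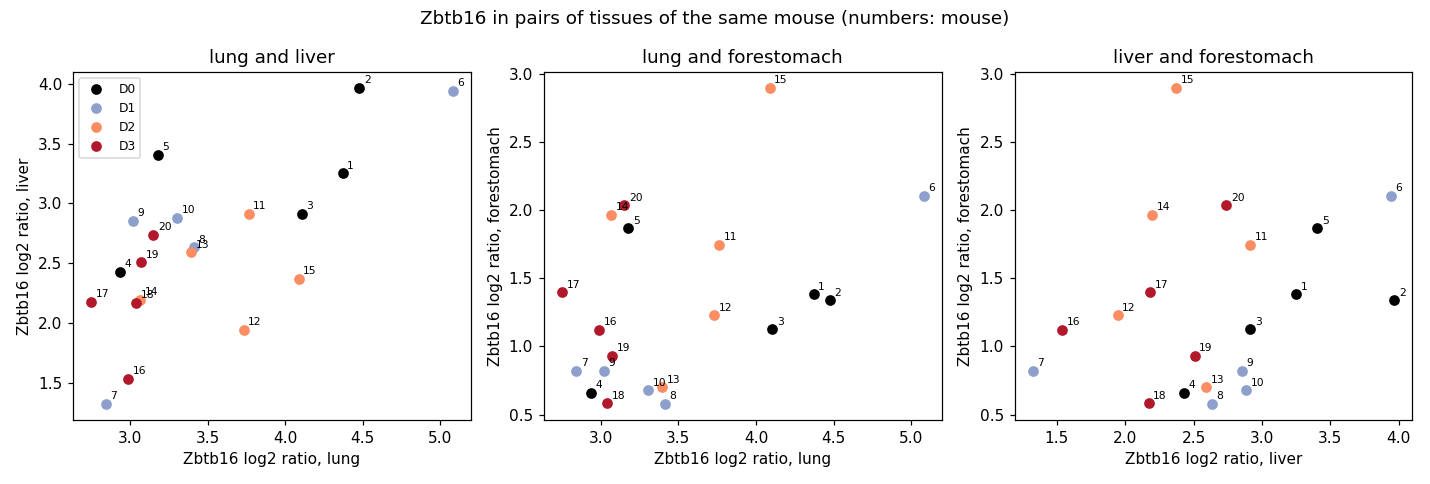
Log2 ratio of Zbtb16 in 1 tissue against another for the 3 pairs of tissues, with 1 point per mouse, marked by its number and coloured by dose. Mice 6 and 2 lie at the upper right of lung against liver, where r was 0.69 over 20 mice and 0.45 without them.

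All 3 tissues then entered a test of a mouse term, chosen after the values had been seen. It asked whether mice of the same dose differed in a way shared by their tissues (limma F test of mouse within dose, adjusted over 33255 probes). Zbtb16 passed (F = 4.57, adjusted p = 0.00852) and the other 5 did not, with Tsc22d3 next (F = 2.52, adjusted p = 0.125). The background was 3.03% of probes. With slide within tissue removed, Zbtb16 had F = 4.33 and an adjusted p of 0.0412, against a background of 1.24%. Leaving out mouse 6 ended the call (F = 2.35, adjusted p = 0.17), while Zbtb16 passed in the 19 sets that left out another mouse.

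Within a tissue, the members were correlated with each other over its 20 arrays. In lung 6 of 15 pairs passed when adjusted over all probes, in liver 0 and in forestomach 3, and 0 passed in any tissue with dose and slide removed. Both values of a pair come from the same array, and in lung a slide accounted for 58.6% of the within-dose variance of Fkbp5, 62.9% of that of Sgk1 and 60.2% of that of Mt1, beside a median of 59.5% over all probes.

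Among the glucocorticoid-responsive members of lung, Tsc22d3 and Zbtb16 had the closest relation, with an r of 0.82 and a rho of 0.66 (permutation p = 4e-05 and 0.00225, adjusted p = 0.0492). Of the probes tested in lung, 0.0129% had as high an r with Tsc22d3, and the same 0.0129% passed with a positive r. This call was at the edge of the threshold. Leaving out each mouse gave an r of 0.80 to 0.85, and the pair passed in 2 of the 20 sets (adjusted p from 0.0332 to 0.124, and 0.0996 without mouse 1). The r was 0.82 with dose removed (adjusted p = 0.196), 0.81 with dose and slide removed (0.541) and 0.76 without the 2 farthest mice. The pair did not pass with normexp correction, processed signals or the deposited ratios (adjusted p = 0.077, 0.0762 and 0.061). Of the other pairs that passed, Fkbp5 had an r of 0.70 with Zbtb16, 0.67 with Mt1 and -0.73 with Sgk1 (permutation p = 0.00082, 0.00081 and 0.00028; adjusted p = 0.00669, 0.00947 and 0.00478). With Fkbp5, 12.2% of probes passed with a positive and 21.3% with a negative r, and 0.00645% and 0.00967% with dose and slide removed, where these 3 values of r were 0.69, 0.52 and -0.45. Lung markers had an r of -0.70 with Fkbp5, 0.72 with Sgk1 and -0.70 with Mt1 over lung arrays. The share of probes well above background had an r of -0.60 with Fkbp5, 0.54 with Sgk1 and -0.23 with Mt1 on the same arrays. The part of either in these relations was not tested.

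Sgk1 and Mt1 in lung had an r of -0.70 (adjusted p = 0.0078, -0.46 with dose and slide removed), where 21.2% of probes passed with a positive and 11.7% with a negative r with Sgk1. Tsc22d3 and Mt1 in lung did not pass, with an r of 0.73 and a rho of 0.76 (permutation p = 3e-04 and 0.00019, adjusted p = 0.179). Mt1 and Mt2 in lung had an r of 0.68 and a rho of 0.38 (permutation p = 0.0125 and 0.0976, adjusted p = 0.0328), beside 2.61% of probes positive and 3.34% negative with Mt1. That relation rested on the lung array of mouse 1, since without mouse 1 r was 0.17. Mt2 in lung also had an r of 0.94 with squamous epithelium markers and of 0.93 with skeletal muscle markers, which became -0.04 and 0.14 without mouse 1, and Mt1 had 0.71 and 0.75, which became 0.40 and 0.51.

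In liver, Mt1 and Mt2 had an r of 0.54 and a rho of 0.65 (permutation p = 0.0142 and 0.00276, adjusted p = 0.375). With dose and slide removed r was 0.87, the highest that any of the 25892 other probes had with Mt1 (0.00386% of probes), although the adjusted p was 0.225. Without the 2 farthest mice that r was 0.80. A slide accounted for 45.8% of the within-dose variance of Mt2 in liver and for 11.6% of that of Mt1, and the share of probes well above background had an r of 0.64 with Mt2 and -0.02 with Mt1. The genes lie side by side on chromosome 8, and the upstream windows printed above hold 3 metal response element cores in Mt2 and 1 in Mt1.

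In forestomach, Fkbp5 had an r of -0.59 with Tsc22d3 and -0.61 with Sgk1, and Tsc22d3 had 0.62 with Sgk1 (permutation p = 0.00674, 0.00386 and 0.00333; adjusted p = 0.0426, 0.032 and 0.0388). With Fkbp5 8.19% of probes passed with a positive and 8.44% with a negative r, and with Tsc22d3 7.7% and 3.31%. In the 20 sets that left out 1 mouse these pairs passed 11, 17 and 12 times. With dose and slide removed their r was -0.62, -0.67 and 0.48 (adjusted p = 0.158, 0.122 and 0.288). Glandular stomach markers, which ran from 0.26 to 7.26 over these arrays, had an r of -0.62 with Fkbp5, 0.60 with Tsc22d3, 0.68 with Sgk1 and 0.66 with Mt1, and their part in these relations was not tested. Zbtb16 in forestomach had an r of 0.76 with skeletal muscle markers and 0.66 with smooth muscle markers, or 0.60 and 0.47 without mouse 15, which had the highest Zbtb16 (2.90) and the highest level of both lists, and an r of 0.61 with the share of probes well above background.

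**Figure D4:**
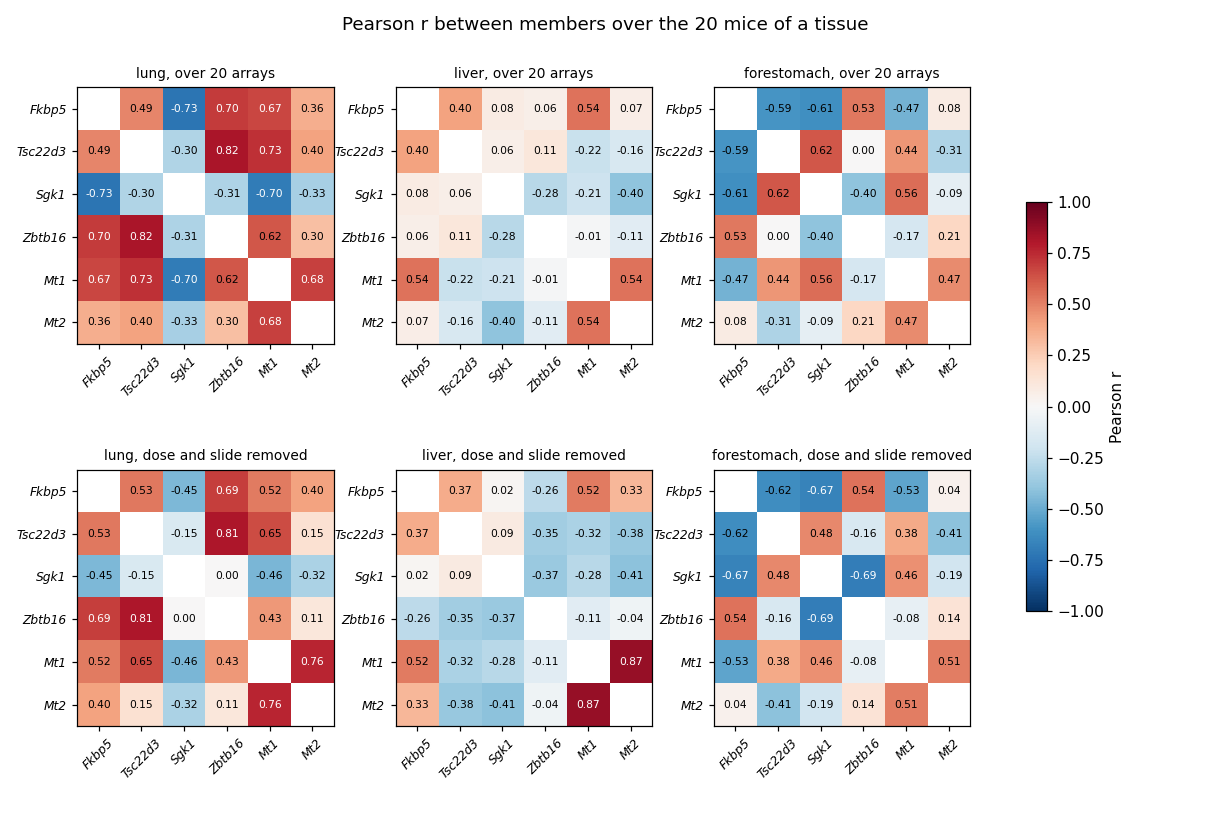
Pearson r between members over the 20 arrays of each tissue (colour scale from -1 to 1), in one row as measured and in the other with dose and slide removed. Tsc22d3 with Zbtb16 in lung reads 0.82 and 0.81, and Mt1 with Mt2 in liver reads 0.54 and 0.87.

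The genes whose levels were most like those of Fkbp5 and Mt1 were taken in each tissue as the 4 with the highest r over 20 arrays. For Fkbp5 these were Pdgfc, Ppp3r1, Psmb5 and H2ac4 in lung (r = 0.87 each), Mkx (0.74), Plpp2 (0.73), Col4a5 (0.70) and Noct (0.70) in liver, and Wnk1 (0.89), Fermt3 (0.88), Eml3 (0.87) and Ascc2 (0.86) in forestomach. None of these genes was among the 4 most alike again with dose and slide removed. For Mt1 they were Dkkl1, Lrig1, Asnsd1 and Gm6498 in lung (0.86 each), Leng9 (0.80), Selenov (0.77), Ascc1 (0.76) and Slc5a6 (0.76) in liver, and Tle5 (0.94), Ddit4 (0.93), Ucp2 (0.93) and Cdipt (0.92) in forestomach. Slc5a6 in liver (0.82) and Ddit4 in forestomach (0.95, adjusted p = 0.00364) were among the 4 again with dose and slide removed. High values of r with Mt1 were common in forestomach, where 13.4% of probes passed with a positive r, and 2.7% with dose and slide removed. Ddit4 encodes an inhibitor of mTORC1 signalling. In liver none of these genes passed when adjusted over all probes.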

How the data were processed

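Median signal intensities of both dyes per spot, background intensities and flags came from the deposited scanner files (build mm9 per the file headers). The deposited log2 ratios, which the authors had normalized by LOWESS without background subtraction, correlated with those computed here at r from 0.9918 to 0.9992. Log2 ratios of median signals were loess normalized in limma 3.58.1 (R 4.3.3), 3671 control spots were left out and 0.46% of values with an outlier flag set to missing. Symbols came from RefSeq accessions through a GRCm38.p6 table (26413 of 55681 probes). A probe was tested in a tissue if 5 or more of its 20 arrays had it well above background in Cy5 (31022 in lung, 25893 in liver, 25070 in forestomach). The number of arrays limits the precision.

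limma compared doses, slopes, tissues and their differences, with Benjamini-Hochberg adjustment over all probes, and a call needed an adjusted p of 0.05 or less and, except for slopes and correlations, 1.5-fold. Correlations used 100000 two-sided permutations (smallest p 1e-05) and an adjustment over all probes in place of the planned one over the 18 and 45 member tests. The planned adjustment was not run, so that which correlations it would call is not given. Mouse numbers pair tissues because the labels give each number to 1 animal, and the consensus correlation within a mouse was 0.08. Named genes were the members, the 4 closest to Fkbp5 and to Mt1 in each tissue, and in each list the genes that passed or else up to 3 with the largest change. Members, lists and the mouse term were chosen with earlier results of these data known. Alternatives were normexp, processed signals, deposited ratios, Aquantile, filters, a variance trend, slide and mouse blocks, leaving out each mouse and, chosen after the values had been seen, lung without mouse 1 or 20 at each dose and with the slide block, and the SD at D0 without each mouse. The tests were checked on simulated data. Figures were drawn with matplotlib 3.10.9.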

Additional observations from a re-analysis of the deposited data

Results flagged for a closer look

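In 9 of the 72 groups of 5 mice, 1 mouse lay far from the other 4 by Dixon's test. For independent normal values chance gives about 1 in 20 groups, or 3.6. The groups share arrays, and the share over all probes was not computed, so the count shows no excess particular to the members. For Zbtb16 the far mouse was mouse 6 at D1, at 5.08 in lung (nearest mouse 3.41) and 2.1 in forestomach (nearest 0.82). For Mt2 it was mouse 1 at D0 in lung, at -1.31 (nearest -3.08), on the array with squamous epithelium and skeletal muscle markers, and mouse 14 at D2 in liver, at -5.07 (nearest -4.47). The same liver array of mouse 14 held the far value of Sgk1 at D2, -1.46 (nearest -2.28). The liver array of mouse 16 at D3 was far for Sgk1, at -2.51 (nearest -2.24), and for Tsc22d3, at 1.39 (nearest 1.06). For Fkbp5 it was mouse 8 at D1 in liver, at -0.74 (nearest -0.56), and mouse 19 at D3 in forestomach, at -0.54 (nearest -0.16).

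At D2 the change of Mt2 was -0.41 in lung, with 0 of 5 mice above the D0 mean, and 0.36 in forestomach, with 5 of 5 above it. The opposite directions rested on the lung array of mouse 1, without which the lung change was -0.03 ± 0.10 (SE) and 3 of 5 mice lay above the D0 mean. The difference was not tested at this dose.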

How the results depend on the processing

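No member was called against D0 or by slope under any alternative run, and no called value changed sign. Of 134 counts under other settings 127 stayed within 1.5 times the reported count. They include counts of 0 in both settings and the counts under Aquantile, which could not differ. With normexp correction 1 member passed between lung and liver in place of 0 (Zbtb16, r = 0.71, adjusted p = 0.0418), and leaving out each mouse gave 0 to 1 for that pair (1 without mouse 5, 9, 12 or 15), 0 to 1 between liver and forestomach (Tsc22d3 without mouse 4, r = 0.80, adjusted p = 0.0174) and 0 to 1 for the mouse term (0 without mouse 6). Pairs of members called in lung were 6, and 2 with processed signals and 0 with dose and slide removed. In forestomach they were 3, and 6 with processed signals, 5 with the deposited ratios, 1 with dose removed, 0 with dose and slide removed, and 0 to 4 in the sets without 1 mouse. The cause of these differences was not tested. With mouse as a replicate block, D3 of liver Zbtb16 against forestomach had an adjusted p of 0.907 (1 without it), and the block changed no call of a level or of a D3 difference. Aquantile leaves log ratios as they were, and the planned mean over probes of a gene was not run because each member has 1 probe. With 5 mice a group the intervals are wide, as that of the lung Fkbp5 change at D3, from -0.94 to 0.02.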
